A study of Mus musculus with 8 samples.

Results

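The 38 listed Hox genes, the homeobox genes of clusters A to D, were taken by symbol from the RefSeq annotation of GRCm38 (mm10), and all 38 were found among its 21900 protein-coding genes. Their data were the peak summits of V5-tagged ZGLP1, a GATA-like zinc finger protein named in the study's title as a determinant of oogenic fate in mice. Between the outermost listed genes of the clusters lay 66 of the 32927 summits in the deposited list.

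Cells of a C57BL/6 x DBA2 background overexpressed V5-Zglp1 under doxycycline (Dox) in every library, so no library came from cells without the transgene being switched on. The ChIP libraries, each from 4000000 cells and made with an anti-V5 antibody, came from primordial germ cell-like cells (PGCLCs) given Dox and retinoic acid (RA) at c8 and at c7, from PGCLCs given Dox only at c8 and at c7, and from embryonic stem cells (ESCs) given Dox and RA for 24 h. PGCLCs are made in culture from ESCs and model early germ cells. They were treated from c3 onward and sorted for SC and mCherry, and ESCs were sorted for mCherry. The other 3 of the 8 libraries were inputs, of c8 PGCLCs with Dox and RA, c8 PGCLCs with Dox only and ESCs. Each group had 1 library, and the authors' list joins all peaks without naming a library or giving a height. Dox and RA was therefore not compared with Dox only here, nor c8 with c7 or PGCLCs with ESCs, and read depth at the summits is unknown. A missing summit can mean no binding or a peak too weak for the authors' threshold, and overexpressed protein may occupy places that the native protein does not. The deposited start and end of each summit are the same number, so a distance may be off by 1 base.

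Hox genes encode homeodomain transcription factors that give cells their position along the body axis. They lie in 4 clusters and are ordered along each by paralogue group, anterior genes at one edge and posterior genes at the other, and all genes of a cluster are transcribed the same way. RA is a classical inducer of the anterior genes, which carry RA receptor elements, whereas Polycomb proteins keep the clusters silent in pluripotent cells, and Hox genes are held down in mouse primordial germ cells. The homeodomain proteins often bind DNA together with PBX and MEIS cofactors.

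Summits were dense across the Hox clusters, and every listed gene had one within 10 kb, but the share of genes with one within 1 kb did not exceed that of protein-coding genes in general. The 4 clusters, 485 kb in all, held 1.36 summits per 10 kb, against 0.126 per 10 kb of the annotated span of the autosomes and X, 10.8 times as many. That span includes gene-poor places. Of windows of a cluster's length with at least as many protein-coding gene ends, 9.38% (A), 14.0% (B), 48.0% (C) and 52.2% (D) held at least as many summits. Every listed gene had a summit within 10 kb of its start or its end (38 of 38), where 66.6% of protein-coding genes had one. Within 1 kb the count was 17 of 38 (44.7%, exact 95% binomial interval 28.6 to 61.7), where 52.9% of protein-coding genes, a share inside that interval, had one. The median distance from a Hox gene's nearer end to the nearest summit was 1075.5 bases, against 657.5 bases over all protein-coding genes. Because Hox genes lie close together, 46 of the 64 summits within 10 kb of one were within 10 kb of another as well, so the genes do not count separately at that distance. At 1 kb, 1 of 23 summits was shared, the one between Hoxa5 and Hoxa6. No test was made over genes, which are not replicates, and the intervals cover counting error only.

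**Figure D1:**
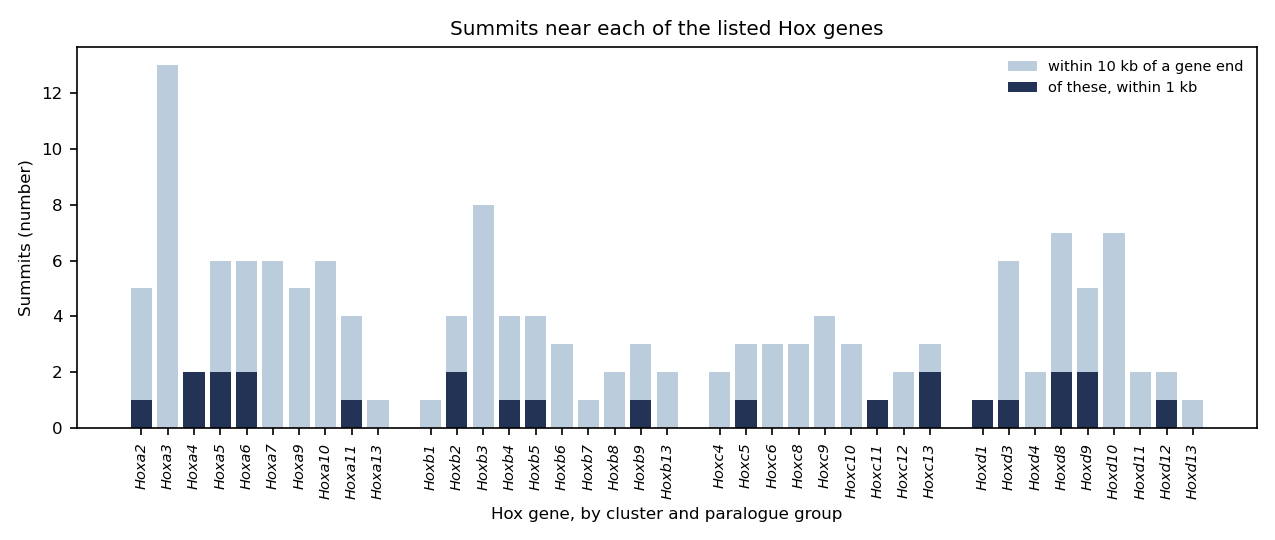
Number of summits near each of the 38 listed Hox genes (bars, vertical axis in summits), within 10 kb of a gene end (light) and, of these, within 1 kb (dark), ordered by cluster and paralogue group. Hoxa3 stands highest with 13, Hoxa13, Hoxb1, Hoxb7, Hoxc11, Hoxd1 and Hoxd13 have 1 each, and 21 genes have no dark bar.

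The promoters with a summit in them are shown first, since they are where a summit and a Hox start site meet. The reference table gives 24 windows, each from 250 bases before to 50 bases after a start site, for 22 of the 38 genes. A summit lay inside 4 of the 24 (16.7%), where 18.8% of the table's 32851 windows held one. These windows belong to Hoxa5, a regulator of lung and axial skeleton development, Hoxa6, Hoxd1 and an internal start site of Hoxd11, a posterior gene of limb and kidney. The sequences below are from RefSeq (GRCm38.p6), read 5′ to 3′ on the strand of the gene, and the capitals mark the 41 bases centred on the summit.
Hoxa5, chr6:52204538-52204837, minus strand: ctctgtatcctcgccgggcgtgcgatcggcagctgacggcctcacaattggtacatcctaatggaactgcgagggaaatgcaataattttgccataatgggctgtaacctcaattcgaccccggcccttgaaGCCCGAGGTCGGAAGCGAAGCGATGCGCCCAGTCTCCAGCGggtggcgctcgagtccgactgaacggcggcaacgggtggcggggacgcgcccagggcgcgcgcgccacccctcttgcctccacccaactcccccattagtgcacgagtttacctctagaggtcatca
Hoxa6, chr6:52208623-52208922, minus strand: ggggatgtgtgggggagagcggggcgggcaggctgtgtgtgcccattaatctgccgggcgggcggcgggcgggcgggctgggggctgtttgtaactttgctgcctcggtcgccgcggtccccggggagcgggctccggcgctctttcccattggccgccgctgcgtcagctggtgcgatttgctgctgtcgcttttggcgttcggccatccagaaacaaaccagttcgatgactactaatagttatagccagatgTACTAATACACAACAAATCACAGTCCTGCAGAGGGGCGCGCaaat
Hoxd1, chr2:74762730-74763029, plus strand: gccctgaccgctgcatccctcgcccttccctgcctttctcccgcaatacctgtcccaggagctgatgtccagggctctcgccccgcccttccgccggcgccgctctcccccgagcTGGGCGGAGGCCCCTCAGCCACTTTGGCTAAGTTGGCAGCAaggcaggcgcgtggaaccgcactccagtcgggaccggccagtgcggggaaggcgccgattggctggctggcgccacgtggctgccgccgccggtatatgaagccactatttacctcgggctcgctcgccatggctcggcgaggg
Hoxd11, chr2:74682073-74682372, plus strand: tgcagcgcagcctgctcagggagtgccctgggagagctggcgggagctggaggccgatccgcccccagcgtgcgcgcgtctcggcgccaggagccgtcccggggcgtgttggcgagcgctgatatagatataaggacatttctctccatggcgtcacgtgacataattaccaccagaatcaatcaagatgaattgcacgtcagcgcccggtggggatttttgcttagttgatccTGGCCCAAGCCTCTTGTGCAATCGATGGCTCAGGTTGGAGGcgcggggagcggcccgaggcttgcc

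In Hoxa5 the summit was base 153 of the window, 98 bases before the start site, and in Hoxd1 it was base 136, 115 bases before it. In Hoxa6 it was base 276, 25 bases after the start site, and in Hoxd11 base 255, 4 bases after the internal start site. The 6-letter GATA motif (GATA preceded by A or T and followed by A or G, on either strand) was in none of these 4 windows. It was in 7 of the 20 Hox windows without a summit, in 13.9% of all windows with a summit and in 33.4% of all windows without one. Over all 24 Hox windows the count was 7 (29.2%), beside 29.8% of all windows. The 4 letters GATA or their complement TATC were found once in the Hoxa5 window, 146 bases from the summit, and as a pair in the Hoxd11 window, 127 and 133 bases from it. None of these lay in the capitals.

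An RA receptor core (GNTCA with G or T as its N, preceded by A or G, on either strand) was in 11 of 24 Hox windows (45.8%), beside 43.7% of all windows. Among the 4 windows with a summit, Hoxa5 had one, AGGTCA at bases 292 to 297, 141 bases from its summit. The DR5 element, a pair of such cores in direct repeat at a fixed spacing, was in 0 of 24 Hox windows and 0.0974% of all windows. Only these windows were searched, so elements elsewhere in the clusters would not be seen. Windows with a summit were rich in CG dinucleotides. The 4 Hox windows held 25 to 29, with a median of 27.5, against a median of 13 in the 20 Hox windows without a summit. The windows richest in CG had no summit, those of Hoxa13 with 45 and Hoxd13 with 37. Over the whole table the medians were 24 with a summit and 5 without. A match to these letters is a description of the sequence, not a bound site.

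Among summits within 1 kb of an annotated start, those of the listed Hox genes lay farther downstream by the median than those of the background genes. A summit lay within 1 kb of the start in 15 of 38 genes (39.5%, interval 24.0 to 56.6), where 51.5% of protein-coding genes of known strand had one, and within 1 kb of the last base in 4 (10.5%), where 6.2% did. Hoxa6 and Hoxd9 had both. Of the 19 summit positions within 1 kb of a Hox start, 13 were downstream and 6 upstream, with a median of 284 bases downstream. The median over 11942 positions at protein-coding starts of known strand was 84 bases downstream. Within 250 bases of the start lay 5 of the 19 (26.3%, interval 9.15 to 51.2) at Hox genes and 55.3% at genes of known strand. The 2 sets are not alike. Known strand means a strand given in the reference table of promoter windows, which holds 22 of the 38 Hox genes. All 5 positions were at such genes, Hoxa5, Hoxa6, Hoxd1, Hoxd8 and Hoxd9. Hox genes absent from that table had none within 250 bases, and the share was not compared for the table's genes alone. Another 5 of the 19 lay 750 to 1000 bases into the gene, those of Hoxa2, Hoxa4, Hoxa5, Hoxb4 and Hoxb9. At genes of known strand 7.28% of positions lay there. It was named as the fullest Hox bin, rests on these few positions, and was not tested. Hox genes typically have their homeobox in the last exon, and which exon a summit fell in was not examined.

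**Figure D2:**
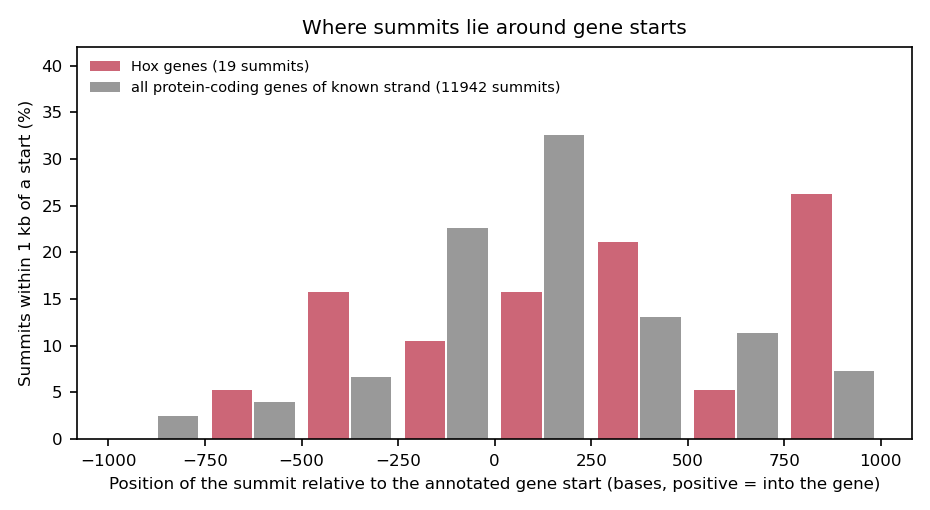
Share of the summits within 1 kb of an annotated gene start (vertical axis, percent) in bins of 250 bases around the start (horizontal axis, positive into the gene), for Hox genes (red, 19 summits) and all protein-coding genes of known strand (grey, 11942 summits). The grey bars peak in the bins on either side of the start. The highest red bar, 26.3% or 5 summits, is 750 to 1000 bases into the gene, where the grey bar is 7.28%.

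Cluster A (chromosome 6, 52162417 to 52260880 from Hoxa2 to Hoxa13) held the most summits for its length, 20 in 98.5 kb or 2.03 per 10 kb (exact 95% Poisson interval 1.24 to 3.14). They ran along nearly the whole cluster, with a median gap of 3.96 kb and a longest gap of 13.7 kb. Hoxa2, which sets the identity of the second branchial arch, had a summit at 52163990, 841 bases into the gene. Hoxa3, a gene of thymus and parathyroid development, had 13 within 10 kb of its ends and 11 inside, but none within 1 kb of an end. Its annotated span of 44009 bases contains Hoxa4, Hoxa5 and Hoxa6 and takes their summits in. Of those not shared with them, 4 lay toward its last base (52170703, 52172658, 52175460 and 52177110) and 2 toward its start (52211323 and 52211834).

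Hoxa4 had a summit 353 bases before its start, at 52192056, and another 910 bases into the gene, at 52190793. Beside its promoter summit at 52204685, which is also 173 bases beyond the last base of Hoxa6, Hoxa5 had one 893 bases into the gene, at 52203694. The Hoxa6 summit at 52208647 was the closest of all to a Hox gene's end. The posterior A genes pattern limb and reproductive tract. Of these, Hoxa11 alone had a summit within 1 kb of an annotated end, 359 bases into the gene at 52245451. Hoxa7, Hoxa9 and Hoxa10 had their nearest at 1404, 1146 and 1332 bases from an end. Hoxa10 also has an internal start site at 52234939, and the summit at 52234273 lay 666 bases downstream of it. As distances refer to the annotated ends, that summit is not among those within 1 kb. Hoxa13, needed for digits and the genital tract, had none inside and its nearest at 6003 bases.

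Cluster B (chromosome 11, 96194316 to 96368254) held 22 summits in 174 kb, 1.26 per 10 kb (interval 0.793 to 1.91), unevenly placed. Hoxb1, an RA-responsive gene of hindbrain identity, had a single summit within 10 kb, at 96366791, 1045 bases into the gene. Hoxb2, its neighbour, had summits on both sides of its last base, 748 bases inside at 96353272 and 619 bases beyond at 96354639, but none within 1 kb of its start. The span of Hoxb3, which contains Hoxb4, held 7 summits, those at 96312058, 96315040, 96333179, 96342095 and 96345862 and the 2 of Hoxb4 at 96319056 and 96320046. The nearest to an end of Hoxb3 was 2068 bases from it. Hoxb4, known for its effect on blood stem cells, had the first of these 789 bases into the gene, and Hoxb5 one 586 bases in, at 96304098. Hoxb6 and Hoxb8 had none inside, with the nearest at 2529 and 1776 bases, and the one near Hoxb7 lay 1497 bases from an end.

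The posterior side of cluster B differed from the rest by its spacer. Hoxb9 had a summit 891 bases into the gene at 96272221, and between it and Hoxb13, a gene of the prostate and tail, lay 8 further summits. Of these, 6 stood at the long noncoding RNA gene Gm53 (96251660 to 96264484), the first 505 bases before its lower end and 5 inside. The remaining 2, at 96203125 and 96203995, lay 6515 and 7385 bases from Hoxb13, beside the noncoding genes Gm30134 and Gm11538. The longest stretch without a summit in any cluster, 47.2 kb, separated the summits at 96203995 and 96251155. Hoxb13 had the most distant nearest summit of all 38 genes.

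Cluster C (chromosome 15, 102921131 to 103036856) held 12 summits in 116 kb, 1.04 per 10 kb (interval 0.536 to 1.81), at the most even spacing, with gaps of 5.21 to 13.1 kb and a median of 10.3 kb. Hoxc13, which acts in hair and nail formation, had a summit on each side of its start, 286 bases before at 102920845, outside the cluster span, and 460 bases after at 102921591. Hoxc5 had one 287 bases into the gene, at 103014295. Hoxc11 had one 573 bases before its last base, at 102956128. Hoxc9 had most within 10 kb, 4, of which the one inside was at 102981789. The 6 genes other than Hoxc5, Hoxc11 and Hoxc13 had none within 1 kb, with the nearest at 1055 bases for Hoxc9, 1096 for Hoxc6, 1208 for Hoxc10, 3540 for Hoxc8, 3802 for Hoxc4 and 4627 for Hoxc12.

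Cluster D (chromosome 2, 74668225 to 74765142) held 12 summits in 96.9 kb, 1.24 per 10 kb (interval 0.64 to 2.16), and 7 of them lay within 1 kb of a gene end. Hoxd8 had most within 10 kb, 7 like Hoxd10, with one 495 bases before its start at 74704120 and another 209 bases after it at 74704824. Hoxd9 had one 163 bases into the gene at 74697926 and one 309 bases beyond its last base at 74700517. With 74701258, these made a run of 5 summits around Hoxd9 and Hoxd8. Hoxd3 had a summit 284 bases after its start, at 74712277, and Hoxd12 one 710 bases before its start, at 74674303. The next 30.7 kb after 74716041, which hold Hoxd4, had none, and Hoxd4 was 5937 bases from its nearest. Hoxd10 and Hoxd13, genes of the hindlimb and of the digits, had their nearest at 1946 and 2700 bases. The summit at the internal start site of Hoxd11, at 74682327, is 2769 bases from an end of that gene's annotated span and so is not among those within 1 kb.

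**Figure D3:**
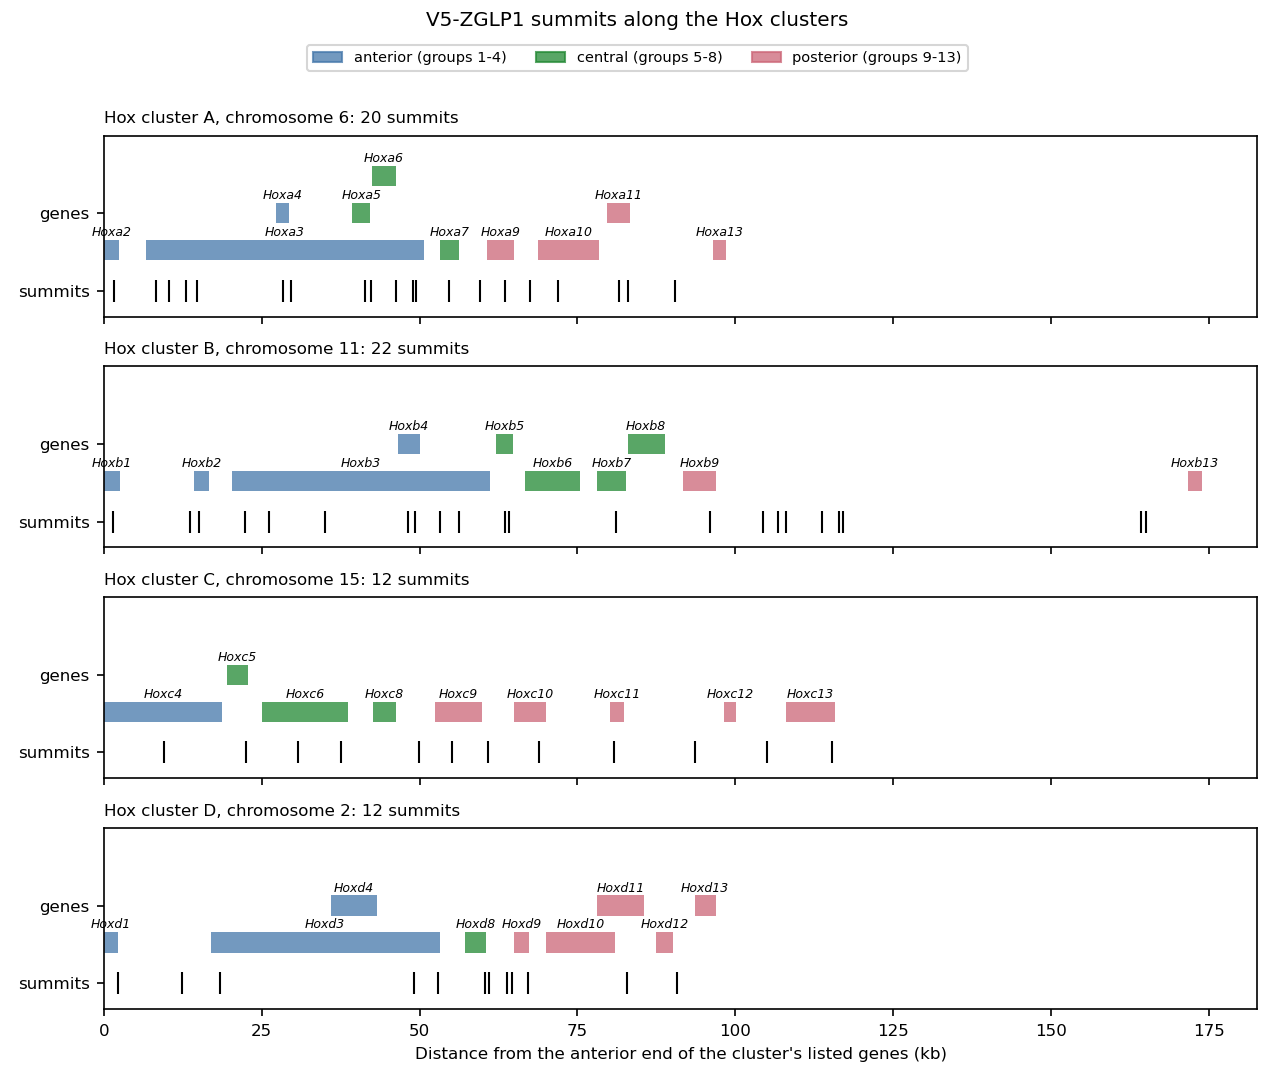
Summits (black ticks) along the listed genes (boxes coloured by paralogue group) of Hox clusters A to D, with the distance from the anterior end of the listed genes in kb on the horizontal axis. Ticks run through cluster A, are evenly spaced in cluster C, leave 47.2 kb free between Hoxb9 and Hoxb13 and 30.7 kb free at Hoxd4.

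Ordered by position along the body axis, 6 of 11 anterior genes (paralogue groups 1 to 4), 5 of 11 central genes (groups 5 to 8) and 6 of 16 posterior genes (groups 9 to 13) had a summit within 1 kb of an end. The shares were 54.5%, 45.5% and 37.5%, on both sides of the 52.9% of all protein-coding genes. With 11, 11 and 16 genes, each share moves by several percentage points with a single gene. The order did not hold at other distances. Within 500 bases the counts were 3, 4 and 3, and within 2000 bases 8, 9 and 11, so that the central genes had the highest share at both. The median distances to the nearest summit were 841 bases for anterior, 1096 for central and 1177 for posterior genes. At the start alone the counts were 5, 5 and 5, where 51.5% of all protein-coding genes of known strand had one. Group 5 alone had a summit within 1 kb of the start in all 3 of its genes, Hoxa5 at 98, Hoxc5 at 287 and Hoxb5 at 586 bases. Each paralogue group holds few genes, and no test was made over groups. In group 7 (Hoxa7 and Hoxb7) and group 10 (Hoxa10, Hoxc10 and Hoxd10) no gene had one within 1 kb of an end. Group 13 was spread most widely, from 286 bases at Hoxc13 to 6515 at Hoxb13. Several genes lay close to the 1 kb limit. Just inside were Hoxb9 at 891 and Hoxa2 at 841 bases, and just outside Hoxb1 at 1045, Hoxc9 at 1055 and Hoxc6 at 1096.

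Of the 66 summits, 44 (66.7%, interval 54.0 to 77.8) lay inside a listed gene, beside 64.9% of all summits that lay inside a protein-coding gene. Within 1 kb of a listed gene's end were 22 (33.3%, interval 22.2 to 46.0), beside 42.3% of all summits at protein-coding ends. A summit lay inside 27 of the 38 genes (71.1%, interval 54.1 to 84.6), beside 54.5% of protein-coding genes, a share inside the interval. Genes that are not protein-coding contained 30 of the 66 summits (45.5%, interval 33.1 to 58.2), beside 11.1% of all summits. Such genes covered 29.0% of the length of the clusters, beside 10.0% of the annotated span of the autosomes and X. The antisense gene Hoxaas3 spanned 5, among them those of Hoxa5 and Hoxa6. The Hoxd1 summit at 74762865 was 31 bases inside Haglr, the long noncoding RNA gene next to Hoxd1, and a summit at 74716041 lay 89 bases inside Hoxd3os1. The list has no strand, so a summit in such an overlap belongs to both genes alike. Hotair, the long noncoding RNA gene of cluster C, had its nearest summit at 826 bases, and Hottip, beyond Hoxa13, at 9925 bases.

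The clusters also carry miRNA genes, which repress some Hox mRNAs. The mature sequences of the pair nearest to a summit are printed 5′ to 3′ from RefSeq (GRCm38.p6), with the seed, bases 2 to 8, in capitals.
mmu-miR-196b-5p: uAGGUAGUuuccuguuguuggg
mmu-miR-615-3p: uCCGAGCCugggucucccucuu
Mir196b, between Hoxa9 and Hoxa10, had a summit 216 bases from its hairpin, and Mir615, inside Hoxc5, one at 615 bases. The other 2 genes of the miR-196 family, which share the seed AGGUAGU, had none within 1 kb, with Mir196a-1 at 1324 and Mir196a-2 at 2543 bases. Mir10a was at 1782 and Mir10b at 10029 bases.

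Summits were sparser in the flanks than inside the clusters. The 100 kb on each side of the clusters held 18 summits in all, 0.225 per 10 kb, against 1.36 inside and 0.126 over the annotated span of the autosomes and X. Flanks and clusters were not matched for gene ends, so the part of gene density in this difference was not tested. Per cluster the flanks held 0.3 (A), 0.3 (B), 0.15 (C) and 0.15 (D) per 10 kb. The flank count of C includes the summit of Hoxc13 at 102920845, just outside the span. The next homeobox genes outside, Evx1 beyond cluster A and Evx2 beyond cluster D, had no summit within 1 kb, with the nearest at 7060 and 3102 bases. Mtx2, the mitochondrial protein gene beside Hoxd1, had one at 276 bases, and Ttll6, beyond Hoxb13, at 85 bases. Hotairm1, the long noncoding RNA gene next to Hoxa2, had 2 within 1 kb and 4 within 10 kb. The 23 genes listed as neighbours were not all outside, since Hotair and the miRNA genes named above lie within the cluster spans. Of these 23, 14 (60.9%) had a summit within 1 kb and 21 (91.3%) within 10 kb. The shares of protein-coding genes were 52.9% and 66.6%, but the list also holds noncoding genes.

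The number of summits in a cluster was set beside every window of the same length laid end to end along the autosomes and X. At least as many summits as in cluster A were in 16 of 26519 windows (0.0603%), as in cluster B in 53 of 15008 (0.353%), as in cluster C in 265 of 22561 (1.17%) and as in cluster D in 186 of 26943 (0.69%). The median over all windows was 0 summits for the lengths of A, C and D and 1 for that of B. Among windows with at least as many protein-coding gene ends as the cluster, 3 of 32 (9.38%) reached the 20 summits of A and 24 of 171 (14.0%) the 22 of B. For the 12 summits each of C and D, 47 of 98 (48.0%) and 24 of 46 (52.2%) did. The medians of these gene-rich windows were 12, 13, 11 and 12 summits. Some of these windows were empty: 81.2% (A), 83.6% (B), 86.7% (C) and 84.8% (D) held at least 1 summit. Clusters C and D thus stood near the middle of windows at least as rich in gene ends, and A and B above it. The part of gene density in the summit density was not tested beyond these counts.

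**Figure D4:**
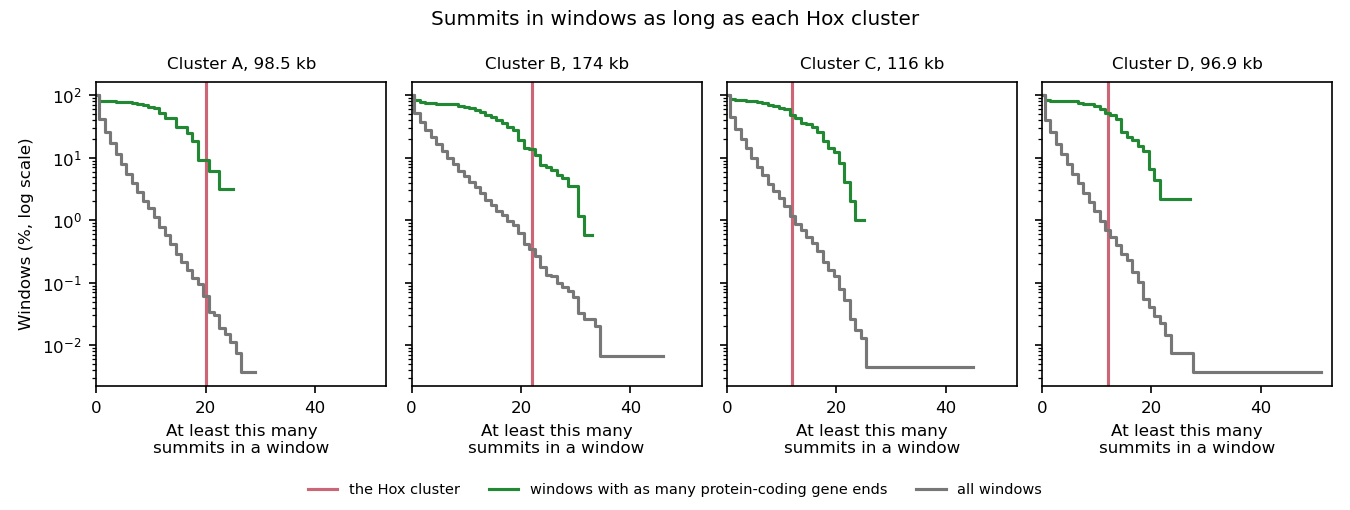
Percent of windows (vertical axis, log scale) that hold at least a given number of summits (horizontal axis), in 1 panel per Hox cluster with windows of that cluster's length. The red line is the cluster's own count, green the windows with at least as many protein-coding gene ends and grey all windows; the red line meets the grey curve at 1.17% or lower and the green curve between 9.38% and 52.2%.

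Among 90 homeobox genes outside the clusters, 52 (57.8%) had a summit within 1 kb and 75 (83.3%) within 10 kb, with a median distance of 714.5 bases. The Hox genes stood below them at 1 kb (44.7%) and above them at 10 kb, where 38 of 38 had one. Of 8 Hox cofactor genes examined, of the PBX, MEIS and PKNOX families, 7 had one within 1 kb and 8 within 10 kb. Over all protein-coding genes the shares were 52.9% and 66.6%. Meis1, whose product binds DNA with posterior Hox proteins, had 3 within 1 kb, the closest at 196 bases. Meis3 was the exception, at 1364 bases. Of the Cdx and ParaHox genes, 4 of 6 (66.7%) had a summit within 1 kb, beside the same 52.9%. Cdx2, an activator of Hox genes in the mouse trunk, had 2 there and 8 within 10 kb, whereas Cdx4, on the X chromosome, had its nearest at 9425 bases. Since genes are not replicates, the differences between these groups carry no test.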

How the data were processed

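The study made 8 libraries, and the values analysed are 1 deposited list of 32927 summit positions in bases, not counts or heights. The build mm10 and, without their settings, the tools MACS2 2.1.1.20160309 and HOMER 4.9.1, SAMtools 1.3 and Picard 2.1.0, bedtools, Bowtie 1.1.2, and cutadapt 1.9.1 with Trim Galore 0.4.1 are named per the submitters' processing notes. Thresholds, the handling of reads with several matches and how the authors joined peaks are not given in the sources used here.

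Gene positions came from the RefSeq table of GRCm38.p6. Strand came from the promoter table for 22 genes and, for the rest, from the other members of their cluster. Overlapping transcript models make the annotated spans of Hoxa3, Hoxb3, Hoxc4 and Hoxd3 long, and distances refer to the ends of the annotated spans for all genes. The promoter table also gives start sites more than 1 kb inside the spans of Hoxa10, Hoxb8, Hoxc4, Hoxd10 and Hoxd11. Those internal sites did not count as gene ends. A summit was near a gene when within 1 kb or 10 kb of either end. Equal windows were laid end to end from the lowest to the highest annotated gene end of each chromosome. Windows could include the cluster itself.

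No test was planned, since the list has no replicates. The genes, lists and measures were chosen with earlier results of these data known. All 38 genes are accounted for, and positions are given for those with a summit within 1 kb and, per cluster, the gene with most summits within 10 kb. Some related genes are not reported here. Alternatives changed the distance, gene end, merging, spans, groups and background. Distances and counts were checked on simulated data, where they matched a direct calculation for 2000 of 2000 genes, with 200 of 200 planted summits found. Figures were drawn with matplotlib 3.10.9, and values computed with SciPy 1.17.1, pandas 2.3.3 and numpy 2.4.6 under Python 3.11.15.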

Additional observations from a re-analysis of the deposited data

How the results depend on the processing

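Of 47 alternative values, 31 stayed within 1.5 times the reported count or within the interval of the reported value, and 16 moved. The count of Hox genes near a summit depended on the distance, with 10 within 500 bases, 28 within 2000 and 35 within 5000, beside 17 within 1 kb. No share of all protein-coding genes was set beside the counts at 500, 2000 and 5000 bases, so they show neither excess nor deficit. By position, the anterior, central and posterior counts of 6, 5 and 6 became 3, 4 and 3 within 500 bases and 8, 9 and 11 within 2000, which made the central share the highest. Giving each summit to its nearest gene kept 17 genes at 1 kb and left 32 of 38 at 10 kb. The share of all protein-coding genes under that rule was not set beside these counts, so they lack a like background. With summits merged within 1 kb, the share of equal windows with as many summits became 0.00754% (A) and 0.523% (C). Among windows with at least as many gene ends the share was 9.38% (A), 14.0% (B), 48.0% (C) and 52.2% (D). That setting was chosen after seeing the data, as were shifted windows and the next one. Without chemosensory receptor genes, 56.8% of protein-coding genes were within 1 kb of a summit and 71.3% within 10 kb. Searching for GATA alone gave 13 Hox windows in place of 7, as fewer letters must match. The 13 were 54.2% of the Hox windows, beside 57.9% of all windows. The cause of the other changes was not tested. Stricter peak thresholds could not be tried, because the list holds no score. No paired analysis was possible because the list does not say which of the single libraries a summit came from. Without read depth, an absent summit cannot be told from a weak one.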
